A study of Mus musculus with 8 samples.

Results

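The matrix metalloproteinases (MMP), ADAM and ADAMTS proteases, the ADAMTS-like proteins and the tissue inhibitors of metalloproteinases (TIMP) were examined in molar tissue of mice with a conditional deletion of Ezh2, the methyltransferase that places the H3K27me3 mark. Genes were taken by name from the table of normalized values, with Mmp20 left out, which gave 59 genes of the 20926 in the table. These were 14 MMP, 17 ADAM, 19 ADAMTS, 5 ADAMTS-like and 4 TIMP genes. RNA sequencing was performed on total RNA from molars of mice on postnatal day 3, after dissection to remove the epithelium, although epithelial transcripts were present in every library, as given below. The labels give the strain as C57BL/6, while the study's methods describe a mixed background. The control group was Ezh2fl/fl (n = 4), in which both Ezh2 alleles are floxed and no Cre is present. The mutant group was Osr2KI-Cre;Ezh2fl/fl (n = 4), which carries the same floxed alleles and a Cre knocked into Osr2. By the study's account this Cre acts in tooth mesenchyme and alveolar bone and spares the epithelium, so the samples can hold cells with intact Ezh2. The labels give 4 samples per genotype and do not name the animals, so p-values measure the spread between these samples.

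MMP, ADAM and ADAMTS proteases hold a zinc ion in their active site. MMPs are secreted or membrane-bound enzymes that cut collagens, gelatin and other matrix proteins. ADAMs sit in the cell membrane and release growth factors, cytokines and receptor ectodomains, although several have lost the zinc site and act in adhesion. ADAMTS enzymes are secreted and cut proteoglycans or trim procollagens, and ADAMTS-like proteins share their ancillary domains without the protease. TIMPs block the active site, and the local balance of enzyme and inhibitor sets how fast matrix is turned over. In the tooth these families act while the follicle, papilla and surrounding bone are remodelled for eruption and root growth.

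The zinc site is the feature that divides these genes into active proteases and others, so its coding sequence is shown for the members that the results turn on. The search read the longest complete coding sequence of each gene on GRCm38 (GENCODE M21) in frame for a histidine codon (CAC or CAT), a glutamate codon (GAA or GAG), 2 free codons, histidine, 2 free codons, a glycine codon (GGN), 2 free codons and histidine. The fixed codons are in capitals, and each sequence runs 5′ to 3′ on the coding strand.
Adam33, chr2:131055130-131055162, minus strand: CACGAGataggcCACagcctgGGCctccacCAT
Adam12, chr7:133961158-133961190, minus strand: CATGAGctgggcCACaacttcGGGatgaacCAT
Adam10, across 2 exons from chr9:70754296-70761585, plus strand: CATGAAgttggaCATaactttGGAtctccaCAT
Mmp17, chr5:129596597-129596629, plus strand: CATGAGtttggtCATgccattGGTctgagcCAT
Mmp9, chr2:164951133-164951165, plus strand: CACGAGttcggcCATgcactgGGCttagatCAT
Mmp13, chr9:7276573-7276605, plus strand: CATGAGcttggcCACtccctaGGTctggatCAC

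The motif was found in 69 of 21562 coding sequences searched (0.32%) and in 37 of the 59 members. All 14 MMP genes had it, as did 10 of 17 ADAM and 13 of 19 ADAMTS genes, and none of the 5 ADAMTS-like and 4 TIMP genes. A form with an asparagine codon (AAC or AAT) in place of the glycine codon was found in 5 coding sequences, and these were Adamts1, Adamts4, Adamts9, Adamts15 and Adamts20, all proteoglycan-cleaving enzymes or their close relatives. An example from each of the best known and the most abundant of them shows the substituted codon in the third block of capitals.
Adamts4, across 2 exons from chr1:171253210-171253915, plus strand: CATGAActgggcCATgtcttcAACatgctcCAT
Adamts9, across 2 exons from chr6:92905285-92908493, minus strand: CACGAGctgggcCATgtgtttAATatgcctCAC
Neither form was found in Adamts8 or in Adam3, Adam4, Adam5, Adam11, Adam22, Adam23 and Adam32, which says only that these letters are not in the transcript that was read.

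Values in the deposited table are not divided by gene length and are scaled so that the 75th percentile of each library is about 38.5. Divided by the smallest value of each library, they correspond to 50.4 to 66.8 M estimated reads in the control and 48.3 to 68.8 M in the mutant libraries. The targeted gene Ezh2 had values from 38.3 to 55.0 in the control and from 23.2 to 36.0 in the mutant libraries, which do not overlap (exact permutation test, two-sided, p = 0.0286, the lowest value possible for 4 against 4), but its adjusted p in limma was 0.235. The mutant mean was 0.725 of the control mean. All 6 dental mesenchyme markers listed were expressed above the filter. Enamel transcripts varied widely: the summed value of 9 ameloblast and epithelial markers ranged from 2273 to 31935 in the control and from 2242 to 13396 in the mutant libraries, and it was highest in control 4, control 3 and mutant 3. The enamel matrix genes Amelx, Ambn and Enam differed 51.4, 20.5 and 221 times between the highest and the lowest library, whereas the epithelial markers Epcam, Cdh1, Krt5 and Krt14 differed 1.79 to 2.85 times. The lowest Krt5 value was 827, far above the 75th percentile, so the libraries were not free of epithelial RNA as the labelled dissection implies. Fold changes below are differences in mean log2(value + 1), mutant minus control, tested with limma across the 14854 genes that reached a value of 1 in 4 or more libraries and adjusted by the Benjamini-Hochberg method. Adding 1 makes the fold change of a low gene appear smaller than it is.

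The protease and inhibitor transcripts spanned a wide range of levels and together made up 0.294 to 0.396% of the summed values of a library. Per kilobase of exon, the scale used to compare genes with each other, the highest mean level was that of Mmp2, the gelatinase also known for activation by Mmp14, at 88.2 in the control and 105 in the mutant. It was followed by its inhibitor Timp2 at 74.6 and 79.1, the membrane-type collagenase Mmp14 at 69.8 and 67.0, the sheddase Adam10 at 71.4 and 62.1, and the gelatinase Mmp9 at 57.3 and 41.4. Timp2, Mmp14 and Mmp2 form a known complex at the cell surface in which Timp2 bridges Mmp14 and the Mmp2 proenzyme, and all 3 stood among the 5 highest. At the other end, Mmp24, Adamts13, Adamts16, Adam21 and Timp4 were each under 0.1 per kilobase in both groups. Adam33 stood at rank 38 of the 59, at 0.470 in the control and 1.67 in the mutant.

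**Figure D1:**
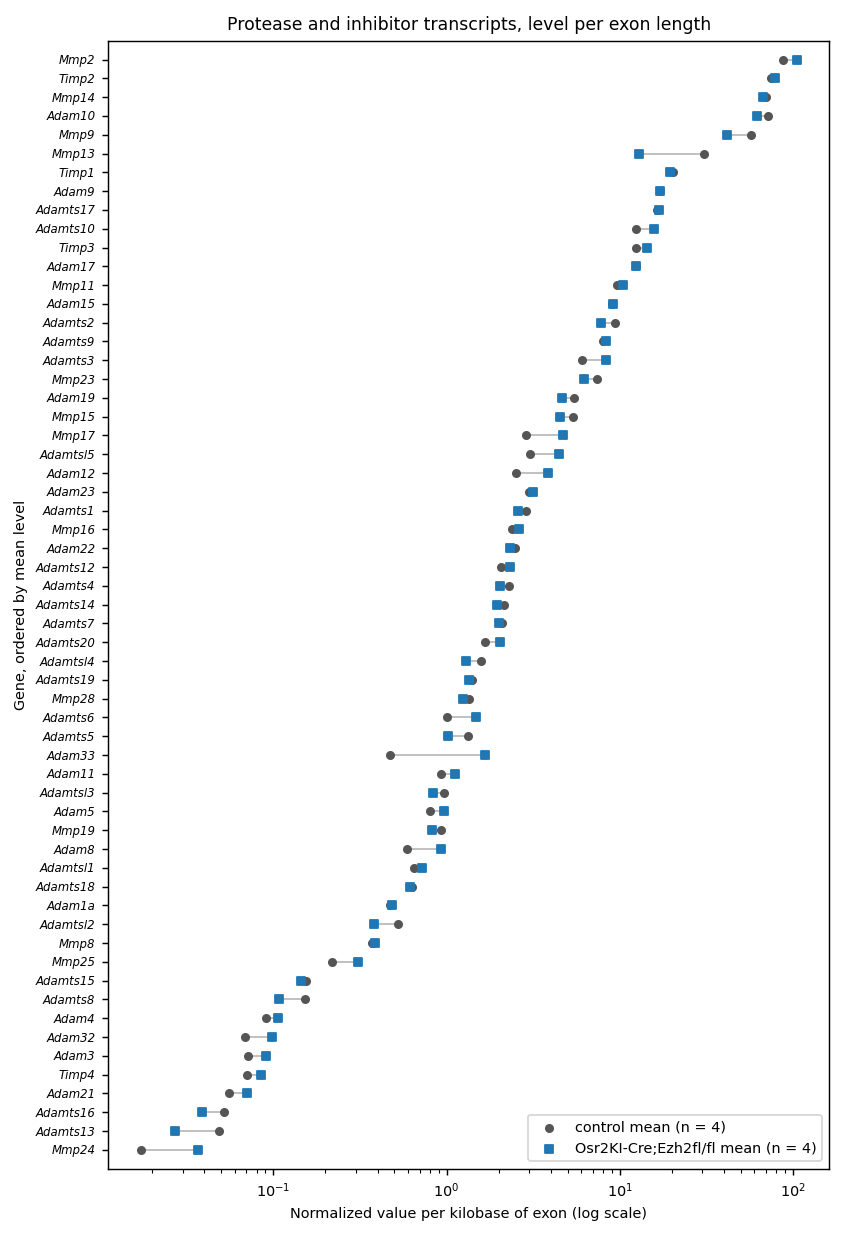
Mean normalized value per kilobase of exon (log scale) of the 59 genes in control (circles, n = 4) and Osr2KI-Cre;Ezh2fl/fl (squares, n = 4) libraries, ordered by mean level. Mmp2, Timp2, Mmp14 and Adam10 lie at the top, and the widest gaps between genotypes are those of Adam33, Mmp13 and Mmp24.

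The values of the 3 genes of that complex overlapped between genotypes. Control libraries 1 to 4 had Mmp2 values of 301, 331, 279 and 278, against 311, 446, 328 and 331 for mutant libraries 1 to 4, with the highest in mutant 2. Timp2 had 270, 333, 265 and 295 in the control and 291, 337, 321 and 284 in the mutant. Mmp14 had 377, 468, 393 and 427 in the control and 360, 457, 362 and 418 in the mutant. The largest log2 fold change of the 3 was that of Mmp2, 0.24 (SE 0.12), with an adjusted p of 0.448 in limma, against 0.09 (SE 0.09) for Timp2 and -0.06 (SE 0.10) for Mmp14. None passed the test.

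For the comparison of genotypes, 49 of the 59 members were high enough to be tested, and 10 were not (Adam3, Adam4, Adam21, Adam32, Adamts8, Adamts13, Adamts16, Mmp8, Mmp24 and Timp4). In limma 1 of the 49, Adam33, was higher in the mutant at an adjusted p under 0.05 and 0 were lower, which is 2.04% of those tested. Of all genes tested, 2.07% were called in either direction, 1.56% higher and 0.512% lower, so the share of members called was near that of all genes. At an unadjusted p under 0.05 there were 11 members, 7 higher (Adam33, Adamtsl5, Adam12, Mmp17, Adamts10, Adam8 and Mmp25) and 4 lower (Adam10, Adamtsl2, Mmp15 and Adamtsl4), or 22.4% against 13.1% of all genes (8.27% higher and 4.87% lower). This count depended on single libraries: it was 5 without control 3, 5 without control 4, 7 without mutant 2 and 15 without control 1, where 8.6%, 10%, 12.1% and 14.7% of all genes had such a p, and 6 with the enamel transcripts as a covariate, against 14.4% of all genes. The log2 fold change was above 0 for 24 members and below 0 for 25, with a median of -0.01. Over all genes tested, 54.1% were above 0 and the median was 0.01. The 2 groups of libraries did not overlap for 3 of the 49, Adam33 and Adamtsl5 on the higher side and Adam10 on the lower, which is 6.12% against 8.53% of all genes tested (5.76% higher and 2.77% lower).

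**Figure D2:**
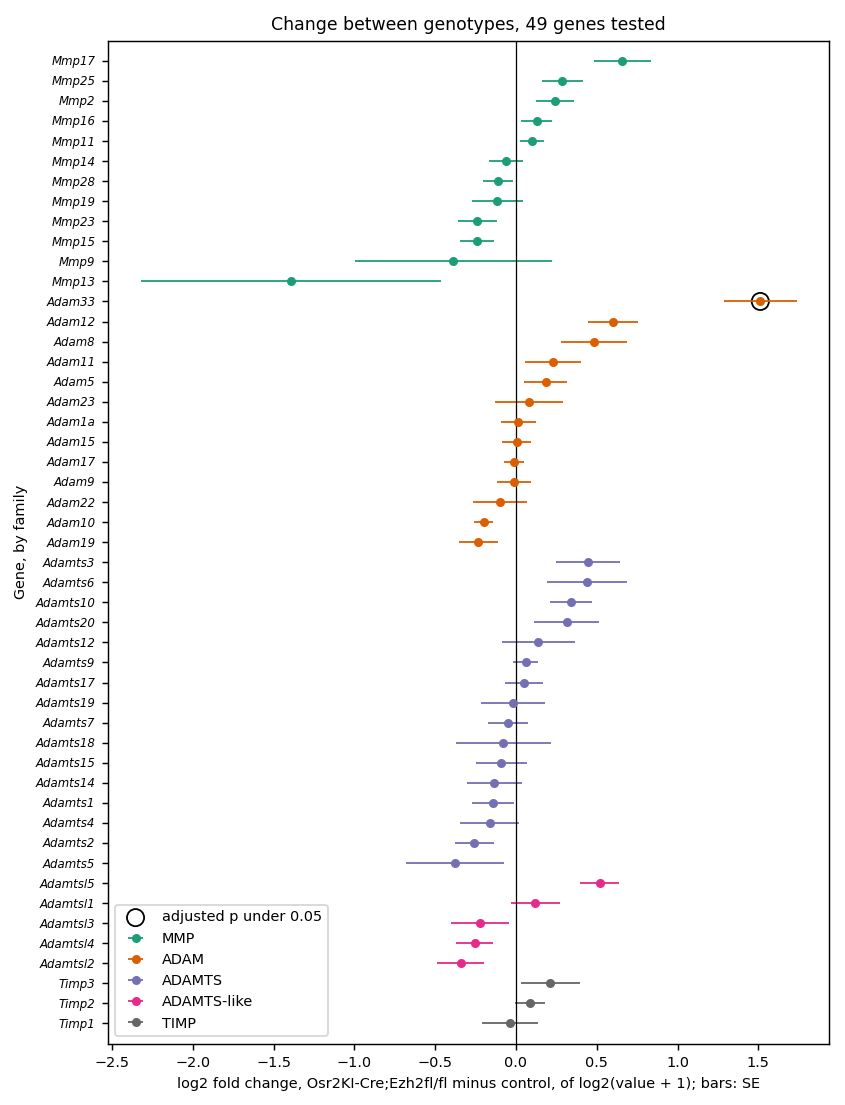
Log2 fold change of log2(value + 1), Osr2KI-Cre;Ezh2fl/fl minus control, with its standard error for the 49 genes tested, coloured by family and ordered within it. Adam33, circled, is the only gene with an adjusted p under 0.05, and Mmp13 and Mmp9 have the longest error bars.

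Adam33, a membrane-bound metalloprotease of mesenchymal cells known from airway disease, was the only member that passed the test. Its gene lies on the minus strand at chr2:131050591-131063814 of GRCm38, and no other gene is annotated within it. Control libraries 1 to 4 had Adam33 values of 4.13, 1.92, 2.22 and 1.87, and mutant libraries 1 to 4 had 5.99, 11.5, 9.79 and 8.75. The 4 mutant values all lay above the control values, with control 1 the highest of its group and mutant 1 the lowest. The mean was 2.53 ± 1.08 (SD, n = 4) in the control and 8.99 ± 2.29 (SD, n = 4) in the mutant, 3.55 times as high. On the log2 scale the change was 1.51 (SE 0.22), with an adjusted p of 0.00993 in limma. Without each library in turn it lay between 1.40 and 1.71, and the adjusted p reached 0.0431 at most. With the library number as a block the log2 fold change was the same, but the adjusted p in limma was 0.0714. Without the 3 libraries highest in enamel transcripts the log2 fold change was 1.29, but the adjusted p was 0.332, in a fit of 5 libraries that called 8 genes in all. In these bulk samples, more cells that express a gene cannot be told apart from more RNA per cell.

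Cartilage transcripts were also higher in the mutant libraries. The summed value of the 3 chondrocyte markers in the table was 10.9 to 17.6 in the control and 25.3 to 60.5 in the mutant libraries. Both markers that passed the filter, Col2a1 and Col9a1, were called higher in the mutant, and among the mutant libraries the sum was lowest in mutant 1 and highest in mutant 2, as for Adam33. The order of the others was not the same: mutant 4 had a higher sum than mutant 3, and the highest control sum was in control 2, while for Adam33 mutant 3 exceeded mutant 4 and control 1 was the highest control. Of the 4 osteoblast markers Ibsp was called higher. Alpl, Sp7 and Bglap were not, with log2 fold changes of 0.14, 0.03 and -0.40. Of the 6 dental mesenchyme markers Lhx8 was called higher. Runx2, Msx1, Pax9, Barx1 and Vim were not, with log2 fold changes of 0.41, 0.27, 0.16, -0.10 and -0.26. The odontoblast markers Dspp, Phex and Dmp1 had -1.13, -0.98 and -0.35, and none was called. The part of these cell types in the Adam33 values was not tested.

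Adam12, a protease with a known role in muscle and bone precursor cells and in cutting insulin-like growth factor binding proteins, had values of 20.5, 33.6, 26.3 and 26.5 in the control and 32.1, 45.1, 45.9 and 40.3 in the mutant libraries. The groups overlapped because control 2 exceeded mutant 1. Adam12 had a log2 fold change of 0.60 (SE 0.16), with an adjusted p of 0.0962 in limma. Leaving out 1 library at a time gave 0.49 to 0.71 with adjusted p values up to 0.269, and only without mutant 1 was it called (adjusted p 0.0487). Adam8, a sheddase of leukocytes and osteoclasts, had low values of 1.84 to 3.39 in the control and 2.63 to 6.02 in the mutant, with a log2 fold change of 0.48 (SE 0.20) and an adjusted p of 0.344. The antisense gene Gm16201 overlaps Adam8, and the strand setting of the counting is not given in the sources used here.

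Among the ADAM genes, the zinc motif was absent in 7, of which 4 were tested (Adam5, Adam11, Adam22 and Adam23). Their log2 fold changes lay between -0.10 and 0.23, and none had an unadjusted p under 0.05. Of the 10 ADAM genes with the motif 9 were tested, with log2 fold changes from -0.23 to 1.51, 3 higher and 1 lower at an unadjusted p under 0.05, which 13.1% of all genes tested had. Whether these sets differ was not tested. Adam22 and Adam23, which act in neural adhesion, had mean levels per kilobase of 2.47 and 3.00 in the control and 2.32 and 3.16 in the mutant. Adam3, Adam32, Adam4 and Adam21, which encode sperm proteins, were under 0.4 in every library. Adam5 and Adam1a passed the filter, with values of 2.23 to 3.97 and 3.10 to 4.55.

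**Figure D3:**
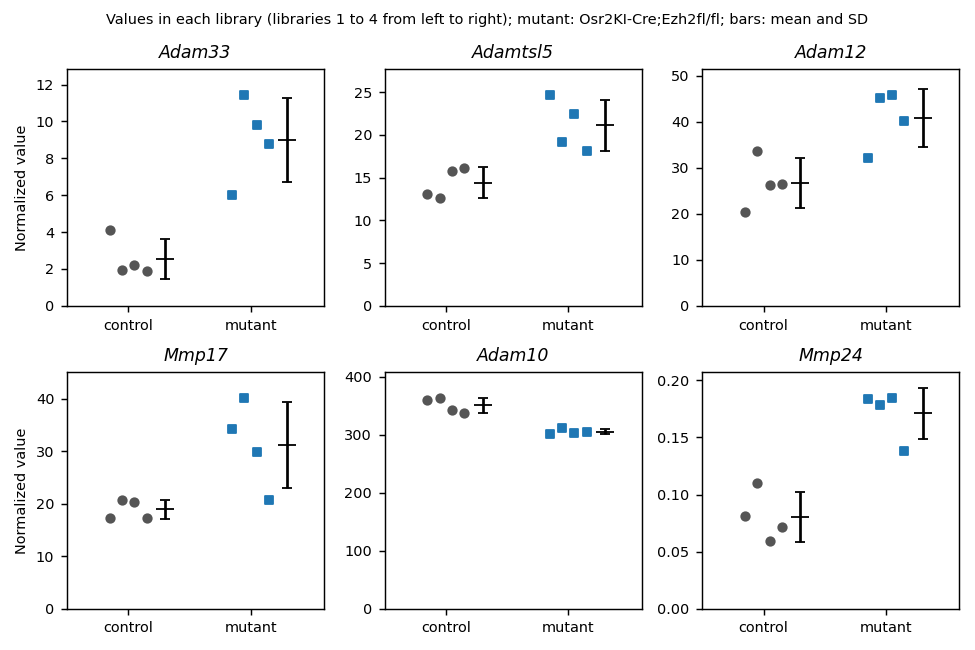
Normalized values of 6 genes in control libraries 1 to 4 (circles) and Osr2KI-Cre;Ezh2fl/fl libraries 1 to 4 (squares), with mean and SD. The groups are apart for Adam33, Adamtsl5, Adam10 and Mmp24, and overlap for Adam12 and Mmp17.

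Adam10, the sheddase that cuts Notch receptors after ligand binding, differed by little and with narrow spread. Its values were 359, 364, 342 and 337 in the control and 302, 311, 303 and 304 in the mutant libraries, so that every mutant value lay below every control value. The means were 350.6 ± 13 and 305.0 ± 4.30 (SD, n = 4), a control to mutant ratio of 1.15. The two-sided exact permutation p was 0.0286, the lowest value possible for 4 against 4, which follows from the lack of overlap. The log2 fold change was -0.20 (SE 0.06), with an adjusted p in limma of 0.152, which misses the threshold. Its close relative Adam17, the sheddase of tumour necrosis factor and of ligands of the epidermal growth factor receptor, had 84.8 to 94.6 in the control and 83.7 to 92.5 in the mutant. Its log2 fold change was -0.01 (SE 0.06), with an adjusted p of 0.973.

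Adam10 is carried to the cell surface by a group of tetraspanins that also direct which substrates it cuts, and their genes were in a list of 38 partner genes (activators, inhibitors, cofactors and neighbouring proteases). Of the 35 partner genes tested, 0 were called higher and 1 was called lower, Tspan15, which is 2.86% and near the 2.07% of all genes tested. Tspan15 values were 83.8, 91.2, 75.5 and 74.9 in the control and 64.4, 50.7, 56.8 and 53.7 in the mutant libraries, all mutant values below all control values. Tspan15 had a log2 fold change of -0.52 (SE 0.09), with an adjusted p of 0.0235 in limma. Leaving out 1 library at a time gave adjusted p values from 0.0153 to 0.0874, and Tspan15 was called only without control 4 or without mutant 1. Without the 3 libraries highest in enamel transcripts the log2 fold change was -0.63, with an adjusted p of 0.211.

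The other tetraspanins of this group did not pass the test and differed in sign. Tspan33 had 1.67 to 2.45 in the control and 2.52 to 3.79 in the mutant libraries, higher without overlap, with a log2 fold change of 0.34 (SE 0.13) and an adjusted p of 0.273. The log2 fold change was 0.36 for Tspan17, -0.16 for Tspan14 and -0.07 for Tspan5, with adjusted p values of 0.251, 0.496 and 0.921. The iRhom genes Rhbdf1 and Rhbdf2, which serve Adam17 in a similar way, had log2 fold changes of 0.05 and -0.07.

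**Figure D4:**
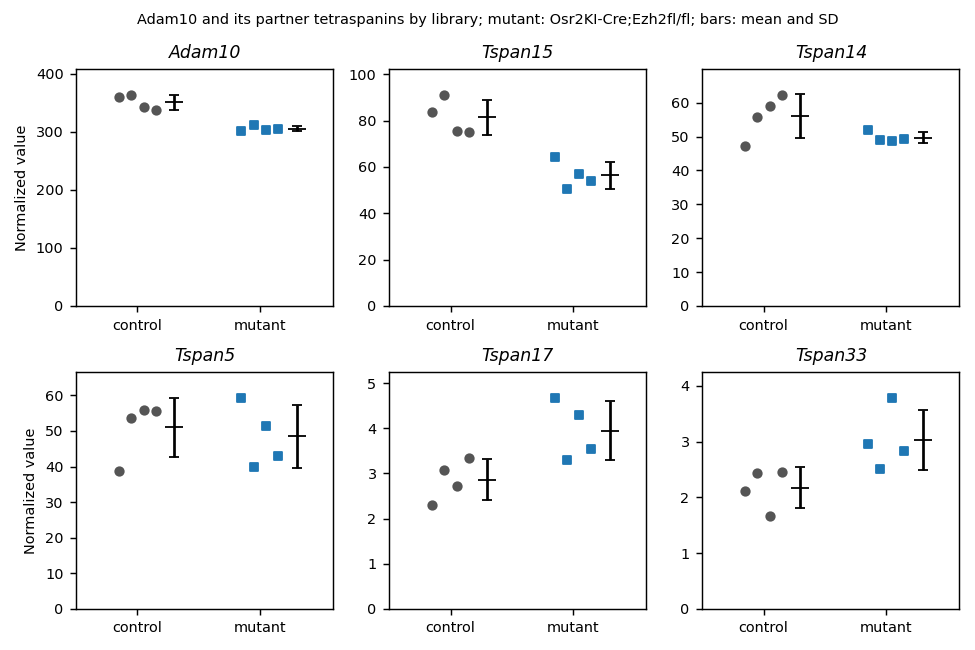
Normalized values of Adam10 and the 5 tetraspanin genes of its group by library, control libraries 1 to 4 (circles) and Osr2KI-Cre;Ezh2fl/fl libraries 1 to 4 (squares), with mean and SD. Adam10 and Tspan15 are lower in all 4 mutant libraries, Tspan33 is higher in all 4, and the other 3 overlap.

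The membrane-type MMPs are the enzymes that work at the cell surface. Mmp17, which is anchored by a glycolipid, had values of 17.3, 20.7, 20.4 and 17.3 in the control and 34.2, 40.2, 29.9 and 20.6 in the mutant libraries. Only mutant 4 lay within the control range. Mmp17 had a log2 fold change of 0.66 (SE 0.18) with an adjusted p of 0.110 in limma. Leaving out 1 library at a time gave 0.53 to 0.84 with adjusted p values up to 0.263, and only without mutant 4 was it called (adjusted p 0.0242). With array weights it was 0.15 (adjusted p 0.475). Mmp15 and Mmp25 had log2 fold changes of -0.24 and 0.29, with adjusted p values of 0.372 and 0.373, and Mmp16 had 0.13. None of the 5 membrane-type genes tested was called, against 2.07% of all genes tested. At an unadjusted p under 0.05 in limma there were 3 (Mmp15, Mmp17 and Mmp25), where 13.1% of all genes had such a p.

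Mmp24 did not pass the filter on low values, and its groups did not overlap. It had 2 to 7 estimated reads in the control and 9 to 12 in the mutant libraries (two-sided exact permutation test, p = 0.0286). In a fit without the filter its adjusted p in limma was 0.240. BC029722, a gene on the opposite strand that overlaps Mmp24, had values from 22 to 28.2, against 0.0593 to 0.185 for Mmp24, and without strand the reads of both cannot be told apart. Of all 20926 genes, 8.2% did not overlap.

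Mmp9 and Mmp13, which osteoclasts, osteoblasts and cartilage cells use to break down bone and cartilage matrix, varied most between libraries of the same genotype. Mmp9 had values of 70.7, 449, 121 and 170 in the control and 195, 80.8, 256 and 54.5 in the mutant libraries. Mmp13 had 14.1, 201, 47.5 and 65.6 in the control and 34.2, 5.0, 89.1 and 9.85 in the mutant. Both genes were highest in control 2 and next highest in mutant 3, and the groups overlapped widely. Between the highest and the lowest library Mmp13 differed 40.1 times and Mmp9 8.24 times. The log2 fold changes were -0.39 (SE 0.61) for Mmp9 and -1.39 (SE 0.93) for Mmp13, with adjusted p values of 0.888 and 0.629 in limma. With 1 library left out the value lay between -0.78 and 0.11 for Mmp9 and between -2.09 and -0.78 for Mmp13, with no call, and with array weights, which called 27.2% of all genes, it was -1.66 and -2.72 (adjusted p 0.0253 and 0.00857).

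Osteoclast transcripts were also highest in control 2 and mutant 3. The summed value of 7 osteoclast markers was 52.3, 330, 97.9 and 156 in the control and 186, 39.2, 287 and 50.2 in the mutant libraries, lowest in mutant 2. Mmp13 was lowest in mutant 2 as well, and Mmp9 in mutant 4. Of the 6 osteoclast markers that passed the filter 0 were called between genotypes, and the levels of Ctsk, the collagen-cutting protease of osteoclasts, were 108, 439, 164 and 246 in the control and 273, 95.9, 404 and 97.5 in the mutant. The summed macrophage markers had a narrower range, 146 to 227 in the control and 203 to 232 in the mutant. Mmp14 and Mmp2, which are expressed by mesenchymal cells, differed from Mmp9 in the mutant libraries, where both were highest in mutant 2 (457 and 446). Among the control libraries Mmp14 had the same order as Mmp9, and its highest value of all was in control 2 (468). Adamts5 and the partner gene Serpine2 were also highest in control 2 and next highest in mutant 3, so this pattern was not confined to osteoclast markers. The neutrophil collagenase gene Mmp8 was between 0.470 and 1.54 in all libraries, beside summed neutrophil markers of 6.95 to 12.9 in the control and 4.94 to 30.1 in the mutant. The part of these cells in the values was not tested.

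**Figure D5:**
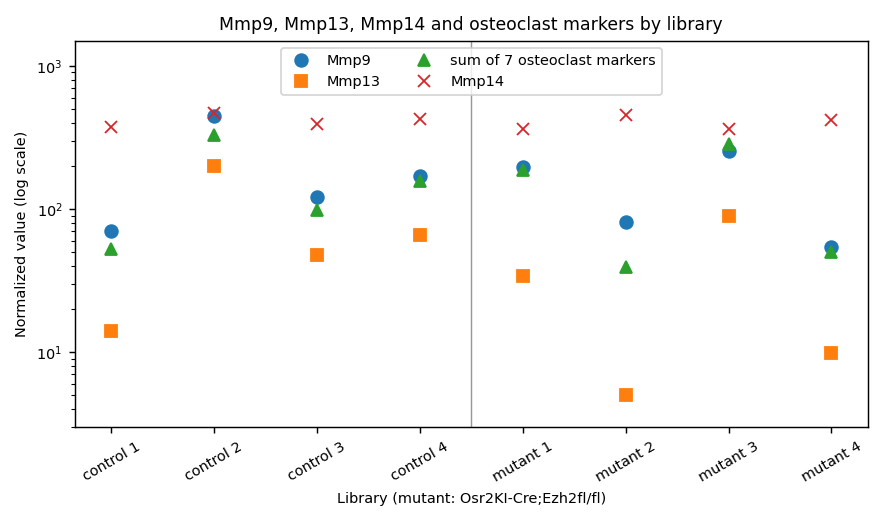
Normalized values (log scale) of Mmp9, Mmp13 and Mmp14 and the summed value of 7 osteoclast markers in each library, control to the left and Osr2KI-Cre;Ezh2fl/fl to the right of the line. Mmp9, Mmp13 and the osteoclast markers are highest in control 2 and mutant 3, whereas Mmp14 stays between 360 and 468.

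The remaining MMPs did not pass the test. Mmp11, a stromal enzyme of tissue remodelling, lay between 25.8 and 29.8 in all 8 libraries, with a log2 fold change of 0.10. Mmp19, Mmp23 and Mmp28 had log2 fold changes from -0.24 to -0.11. Of the 12 MMP genes tested, 0 were called in either direction, against 2.07% of all genes tested.

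Of the 16 ADAMTS genes tested 0 were called and 1, Adamts10, had an unadjusted p under 0.05, where the shares over all genes are 2.07% and 13.1%. Adamts10, which acts on fibrillin microfibrils and not on proteoglycans, had 121, 108, 91.5 and 87.2 in the control and 118, 126, 158 and 116 in the mutant libraries, with a log2 fold change of 0.34 (SE 0.13) and an adjusted p of 0.275. Its microfibril-associated relative Adamts6 had 9.05, 9.36, 6.98 and 6.12 in the control and 7.01, 9.52, 18.5 and 11.2 in the mutant, where mutant 3 was highest. The log2 fold change of Adamts6 was 0.44 (SE 0.25), with an adjusted p of 0.531. Adamts17, the ADAMTS gene with the highest level per kilobase, differed by 0.05 on the log2 scale.

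The proteoglycan-cleaving enzymes had 6 tested genes, of which 0 had an unadjusted p under 0.05, against 13.1% of all genes tested. Adamts1 had 11.3, 16.6, 17.9 and 15.6 in the control and 14.5, 12.9, 13.6 and 13.6 in the mutant libraries. Adamts4 had 12.1, 13.5, 9.39 and 9.16 in the control and 7.24, 13, 8.26 and 10.9 in the mutant. Adamts5, the main aggrecan-cutting enzyme of mouse cartilage, had 8.43, 19.7, 14.7 and 14.8 in the control and 13.5, 8.57, 16 and 6.22 in the mutant. These values overlap for all 3 genes, with log2 fold changes of -0.14 (SE 0.13), -0.16 (SE 0.18) and -0.38 (SE 0.30) and adjusted p values of 0.774, 0.831 and 0.715. With 1 library left out Adamts5 lay between -0.595 and -0.156, with no call. With array weights, which called 27.2% of all genes, Adamts5 had -1.10 (adjusted p 0.00387 in limma). Adamts9, the most abundant of the group, had means of 120.5 ± 4.68 and 126.0 ± 12.3 (SD, n = 4), a log2 fold change of 0.06.

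The procollagen N-propeptidases remove the amino-terminal propeptide of fibrillar procollagens. Adamts3, best known for activating the lymphatic growth factor Vegfc, had 39.8, 36.8, 31.1 and 23.2 in the control and 31, 54.0, 44.6 and 50.4 in the mutant libraries. Mutant 1 lay among the control values and the other 3 above them, and the log2 fold change was 0.45 (SE 0.20) with an adjusted p of 0.384. Adamts2, the principal enzyme for type I procollagen, had a log2 fold change of -0.26 (SE 0.12) and Adamts14 one of -0.13 (SE 0.17), with adjusted p values of 0.413 and 0.858. Bmp1, which removes the propeptide at the other end, had a log2 fold change of 0.22 with an adjusted p of 0.229, and its relative Tll1 had -0.46 with an adjusted p of 0.0800.

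The ADAMTS-like genes encode matrix proteins without a protease domain. Adamtsl5 had values of 13.1, 12.6, 15.8 and 16.1 in the control and 24.7, 19.2, 22.4 and 18.2 in the mutant libraries, so that all mutant values were above all control values. The means were 14.4 ± 1.82 and 21.1 ± 3.00 (SD, n = 4), 1.46 times as high in the mutant. The two-sided exact permutation p was 0.0286, the lowest value possible for 4 against 4, which follows from the lack of overlap. Adamtsl5 had a log2 fold change of 0.52 (SE 0.12), with an adjusted p in limma of 0.0725. It did not pass when any 1 library was left out, and with the enamel transcripts as a covariate the log2 fold change was 0.63 with an adjusted p of 0.0219. Adamtsl2 and Adamtsl4, which bind fibrillin microfibrils, had values on the other side, with log2 fold changes of -0.34 and -0.26 and adjusted p values of 0.347 and 0.375.

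The inhibitors did not pass the test in either direction. Timp1 had 14.4, 24.2, 15.5 and 17.8 in the control and 22.7, 15.2, 16 and 15.7 in the mutant libraries. Timp3, which is bound to matrix and inhibits ADAM and ADAMTS enzymes as well as MMPs, had 71.4, 121, 97.9 and 116 in the control and 105, 105, 153 and 105 in the mutant. The groups overlapped for both, with log2 fold changes of -0.03 (SE 0.17) and 0.21 (SE 0.18) and adjusted p values of 0.969 and 0.735. Reck, a membrane-anchored MMP inhibitor among the partner genes, had 98.9 to 134 in the control and 101 to 173 in the mutant, with a log2 fold change of 0.22 and an adjusted p of 0.664.

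Timp4 was not tested, with 17 to 33 estimated reads in the control and 26 to 37 in the mutant libraries (two-sided exact permutation test, p = 0.0571). Timp1, Timp3 and Timp4 each lie inside a synapsin gene on the opposite strand, Syn1, Syn3 and Syn2. Syn2, the host of Timp4, had values of 1.95 to 2.22 in the control and 3.92 to 4.86 in the mutant libraries and was called higher. Its log2 fold change was 0.83 (SE 0.09), with an adjusted p of 0.00329 in limma. Without the 3 libraries highest in enamel transcripts the log2 fold change was 0.82, with an adjusted p of 0.166. Syn1 was not called, with an adjusted p of 0.730, and Syn3 was not tested. Since strand use in the counting is not given in the sources used here, reads of the 2 genes of each pair cannot be told apart.

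Besides Tspan15, the partner genes with the largest log2 fold changes were A2m, Papln, Fap and Tll1, and none of these 4 was called. A2m, a broad-range protease trap of plasma and tissue, had 9.17, 9.99, 5.04 and 4.74 in the control and 7.43, 19.0, 14.3 and 23.9 in the mutant libraries, a log2 fold change of 1.01 with an adjusted p of 0.214. Leaving out 1 library at a time gave A2m 0.80 to 1.32, with adjusted p values in limma from 0.0481 to 0.542, and 1 of these 8 fits called it. Papln, a matrix protein with ADAMTS-like domains, had 75.1, 113, 257 and 356 in the control and 66.3, 74.2, 208 and 60.3 in the mutant, and its 3 highest values were in the libraries highest in enamel transcripts. Fap, a serine protease of activated fibroblasts, had a log2 fold change of 0.61 with an adjusted p of 0.464. At an unadjusted p under 0.05, 7 of the 35 partner genes tested were higher and 4 lower, or 31.4% against 13.1% of all genes tested, with a median log2 fold change of -0.07. The list was chosen with earlier results of these data known, so this share only describes it. Whether the share depends on single libraries was not examined.

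Across the 8 libraries the largest value was at least 2 times the smallest for 16 of the 49 members tested (32.7%, against 17.3% of all genes tested) and at least 4 times for 3 (6.12%, against 3.02%). These 3 were Mmp13, Mmp9 and Adam33. For Adam33 the wide range lay between the genotypes, whereas for Mmp9 and Mmp13 it lay within each of them.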

How the data were processed

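RNA sequencing of postnatal day 3 molars, dissected to leave the mesenchyme, gave 8 libraries, 4 per genotype, grouped by their labels. The paper's methods give 4 per group and also mention 3 pairs of samples, without saying which, and all 8 libraries were used. The paper's methods name TopHat 2.0.8, the mm10 genome, single-end reads of 75 cycles and RPKM, and the submitters' processing notes name STAR 2.5.3a, Partek and CASAVA 1.8.2. Since the values deposited are not divided by gene length, their unit was taken to be a signal. Reads were estimated as the value divided by the smallest value of its library, minus 1, and 62.9% of values below 20 times the smallest were whole within 0.02, too few to test as counts. With 3 reads taken as a floor, depth limits the lowest members. The table held 0 other per-sample columns.

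Genotypes were compared with limma 3.58.1 (R 4.3.3) on log2(value + 1) with a mean-variance trend, in genes at 1 or more in at least 4 libraries, and single values with two-sided exact permutation tests over 70 arrangements. The model was run on simulated reads, drawn independently for each library, with 200 genes changed by more than most members here. Of the changed genes 100% were called, and 2.44% of calls were false. Shifts shared by many genes of a library, such as those of the enamel transcripts, were not simulated, so the result does not cover them. Exon lengths, overlaps and coding sequences were taken from GENCODE M21 in Python 3.11.15 (pandas 2.3.3, with matplotlib 3.10.9 for the plots).

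Values per library were given for members with an adjusted p under 0.05, the 10 largest absolute log2 fold changes, the 5 highest levels per kilobase and 14 genes listed by name, of which 13 were in the table. For Adam8, Adam17 and Timp4, which fall under this rule, only ranges were given. Mmp3 was not analysed here. Partner genes were named by the same threshold and the 5 largest changes. Adam10 tetraspanins, Mmp15, Mmp24, Mmp25, Adamts10, Adamtsl2, Adamtsl4 and others outside this rule were added with their values known. The members and lists were chosen with earlier results of these data known. Alternatives were other pseudocounts, filters and scalings, limma without trend, with robust moderation or array weights, voom on estimated reads, a replicate block, enamel or Xist covariates and each library left out.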

Additional observations from a re-analysis of the deposited data

Results flagged for a closer look

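In 9 of the 118 groups of 4 libraries examined, 1 library stood apart from the other 3 by Dixon's criterion, where chance alone flags about 1 in 20 groups, or 5.9 here. Timp3 was 152.9 in mutant 3 against 105.2 to 105.4 in the other mutant libraries. Timp1 was 22.7 in mutant 1 against 15.2 to 16. Mmp11 was 29.6 in control 2 against 25.8 to 26.3 in the other control libraries, and 26.6 in mutant 3 against 29.6 to 29.8 in the other mutant libraries. Mmp25 was 1.53 in control 2 against 1.01 to 1.06. Adamts15 was 1.36 in control 3 against 1.67 to 1.70. The other 3 were genes of very low level: Adam21 at 0.191 in control 1 against 0.148 to 0.155, Adam3 at 0.155 in control 3 against 0.226 to 0.229, and Mmp24 at 0.138 in mutant 4 against 0.178 to 0.185.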

How the results depend on the processing

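Only Adam33 was called among the members. The count of members called higher became 0 with a filter at a value of 10, which leaves Adam33 out of the test, 0 with the replicate block (Adam33 adjusted p 0.0714), 0 without the 3 libraries highest in enamel transcripts, 2 with these transcripts as a covariate (Adam33 and Adamtsl5), 8 with array weights, and 1 to 2 when each library was left out. The count called lower was 10 with array weights and 0 to 0 with a library left out. Members at an unadjusted p under 0.05 numbered 6 with the filter at 10 (all genes, 11.2%), 26 with array weights (40.7%), 6 with the enamel covariate (14.4%), 7 with Xist as a covariate (13.4%), 6 without the 3 libraries (7.02%), and 5 to 15 with a library left out. Partner genes called higher numbered 9 with array weights and 0 to 1 with a library left out. Partner genes called lower numbered 2 without a filter, 2 with quantile normalization, 13 with array weights, 0 with the replicate block (Tspan15 adjusted p 0.105), 0 without the 3 libraries, and 0 to 1 with a library left out. Array weights gave mutant 4 a weight of 9.66 and called 4040 genes (27.2%) in all. The cause of these differences was not tested.

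Of 435 values of single genes under alternatives, 411 kept direction and side of the threshold, 2 (Adam33, above) no longer passed, 12 newly passed, 9 of them with array weights, and 10 changed sign. The sign changed for Timp2 with array weights (-0.023), Mmp9 with the enamel covariate (0.024), Timp1 with Xist (0.0073) and Adamts6 without the 3 libraries (-0.016), and with 1 library left out for Adam17 (-0.034 to 0.018), Mmp9 (-0.78 to 0.11) and Timp1 (-0.16 to 0.11). The median log2 fold change of members lay between -0.05 and 0.03. Same-numbered libraries deviated from their group means with correlations of -0.34, -0.08, 0.22 and -0.43. The numbers were therefore not taken to pair samples, although these correlations cannot show whether the animals were paired. The replicate block called 73 genes in all against 308. Among the members named with values per library, Syn2 and Ezh2, the block changed no call other than that of Adam33, and calls of marker genes were not compared. The removal of the 3 libraries and the log2 without pseudocount or filter were chosen after seeing the data.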
